A study of Mus musculus with 20 samples.

Results

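Clusterin and 8 complement genes were followed in 15 mouse pancreatic ductal adenocarcinomas. The 9 genes were Clu, C1qa, C1qb, C1qc, C1s1, C4b, C3, Cfb and Cfd, out of 20636 genes in the deposited table, and all 9 passed the minimum level for testing. Clu was chosen for its level, which is among the highest of these tumours, so its rank is given as a description. The 8 complement genes were named by symbol.

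All mice carried a tdTomato reporter at the Rosa26 locus. It is switched on by Cre recombinase that is driven by Ptf1a and activated by tamoxifen (Ptf1aCreER), so recombination starts in the acinar cells that make the pancreas's digestive enzymes. KPAT mice also carried floxed alleles of both Trp53, which encodes the tumour suppressor p53, and Cdkn2A-Arf, whose Arf product stabilises p53. KAT mice carried the floxed Cdkn2A-Arf alleles alone and KPT mice the floxed Trp53 alleles alone. Mice were 8 to 10 weeks old when they received 5 mg of tamoxifen by gavage on each of 3 days, and they were kept until they became morbid. The age at collection is not given in the sources used here. RNA came from whole tumours, 5 per genotype, so cancer cells, stroma, vessels and immune cells all contribute, and for any gene below fewer cells of a type and less RNA per cell cannot be told apart.

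The libraries held 14696138 to 26248484 reads in KPAT tumours, 16704627 to 22124495 in KAT tumours and 16622901 to 23039354 in KPT tumours. Levels are in deposited units, which are reads divided by 1 factor per library. Spearman correlations over genes were 0.934 to 0.989 within genotypes and 0.903 to 0.974 between them. All 10 ductal epithelium markers were measured, and their summed level was 7558 to 10377 in KPAT, 6857 to 11131 in KAT and 10549.7 to 18438 in KPT tumours. Trp53 averaged 41.9 ± 9.53 in KPAT, 125 ± 20.03 in KAT and 24.3 ± 1.77 in KPT tumours (SD, n = 5 each). Cdkn2a averaged 622 ± 289 in KPAT, 426 ± 254 in KAT and 297 ± 47.1 in KPT tumours. Which exons were floxed is not named, so these levels check the genotypes only in part. The numbers in the library names do not overlap between genotypes, so genotype and any batch that runs with those numbers cannot be told apart. The labels number the tumours separately and say no more of their origin, so p-values measure the spread between these samples.

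Complement is a cascade of plasma and tissue proteins that tags targets for uptake and lysis. In the classical arm C1q, a protein of 3 chains made largely by macrophages, binds its target and switches on the proteases C1r and C1s. These cleave C4 and C2, and the enzyme they form cleaves C3, the component on which all arms meet. In the alternative arm factor D cleaves factor B, which is bound to C3 and forms a further C3-cleaving enzyme. Clusterin is a secreted chaperone that also blocks assembly of the terminal, pore-forming complex. In epithelia it is known for its rise in stressed and regenerating cells.

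RefSeq promoter windows, from 250 bases before to 50 bases after the start site, were at hand for 5 of the 9 genes: C1qb, C1qc, C1s1, C3 and Cfd. The windows of C1qb and C1qc, whose levels varied together, and of C1s1 and C3, which also varied together, are shown 5′ to 3′ on the gene's strand in build GRCm38.p6. C1qb lies at chr4:136886151-136886450, C1qc at chr4:136892865-136893164, C1s1 at chr6:124542310-124542609 and C3 at chr17:57228087-57228386, all on the minus strand. Capitals mark matches to 6 motifs searched on both strands.
C1qb: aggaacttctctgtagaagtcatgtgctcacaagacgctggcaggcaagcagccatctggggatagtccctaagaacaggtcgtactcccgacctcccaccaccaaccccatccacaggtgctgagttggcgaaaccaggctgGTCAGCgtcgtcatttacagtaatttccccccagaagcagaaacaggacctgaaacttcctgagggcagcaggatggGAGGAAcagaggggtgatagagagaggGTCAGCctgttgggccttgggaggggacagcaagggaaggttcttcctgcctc
C1qc: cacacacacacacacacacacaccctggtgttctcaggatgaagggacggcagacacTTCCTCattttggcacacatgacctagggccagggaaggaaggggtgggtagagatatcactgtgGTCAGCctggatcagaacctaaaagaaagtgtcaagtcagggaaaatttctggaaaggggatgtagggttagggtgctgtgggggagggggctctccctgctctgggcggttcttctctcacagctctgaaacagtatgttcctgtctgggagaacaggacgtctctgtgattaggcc
C1s1: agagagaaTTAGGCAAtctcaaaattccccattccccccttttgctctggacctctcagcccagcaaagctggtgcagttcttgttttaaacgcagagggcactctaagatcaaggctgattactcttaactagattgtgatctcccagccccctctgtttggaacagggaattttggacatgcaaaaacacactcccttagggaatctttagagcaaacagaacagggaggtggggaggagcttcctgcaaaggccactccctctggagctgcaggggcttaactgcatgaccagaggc
C3: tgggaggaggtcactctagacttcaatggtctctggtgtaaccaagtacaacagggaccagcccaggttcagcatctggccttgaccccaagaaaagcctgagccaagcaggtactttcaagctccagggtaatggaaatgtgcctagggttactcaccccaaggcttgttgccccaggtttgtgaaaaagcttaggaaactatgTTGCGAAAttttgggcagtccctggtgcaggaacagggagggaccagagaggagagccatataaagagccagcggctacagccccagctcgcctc
The core of the PU.1 motif, GAGGAA, was found on the gene strand of C1qb at -30 and on the other strand of C1qc at -193, counted from the start site. PU.1 is a transcription factor of myeloid cells. The core of the Maf recognition element, GCTGAC, was found on the other strand at -107 and -3 of C1qb and at -128 of C1qc. It was also present in the Cfd window, at -58. The C/EBP element, TTGCNNAA, was found on the gene strand of C3 at -45 and on the other strand of C1s1 at -242. C1s1 has another annotated start nearby whose window held none of the 6 motifs. The STAT element TTCNNNGAA, the AP-1 element TGANTCA and the interferon response element (GAAA, any 2 bases, GAAA) had no match in the windows of the 5 genes. Of 32851 promoter windows of the same length, 28.3% held the PU.1 core, 15.7% the Maf core and 10.8% the C/EBP element. The STAT, AP-1 and interferon response elements were in 8.3%, 7.81% and 3.44% of them. No capitals overlap, and a match describes letters only.

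Clu had the highest level of all 20636 genes over the 15 tumours, with a mean of 17824. It lies on chromosome 14 (65968483 to 65981547, plus strand, GRCm38). Per kilobase of exon it ranked 2nd, behind the predicted RNA gene Gm23935. It took between 0.907% and 2.36% of the reads of a tumour. Without regard to length it had the highest level in 13 of 15 tumours. Per kilobase its rank in a tumour ran from 2 to 5, so it was first in none. In KPAT tumours Clu stood at 21899.7, 16747, 20709.6, 23292 and 18429. In KAT tumours it stood at 9366, 18509.9, 19391, 19042 and 17828. In KPT tumours it stood at 15262, 17967, 17636, 22257 and 9027. The 3 genotypes overlapped, with 1 KAT tumour and 1 KPT tumour at about the same low level. The log2 fold change was 0.35 in KPAT over KPT (SE 0.29, adjusted p = 0.438), 0.05 in KAT over KPT (SE 0.29, adjusted p = 0.922) and 0.30 in KPAT over KAT (SE 0.29, adjusted p = 0.739), all by limma over all genes. Fold changes here are of log2(value + 1) with values on the scale of reads, which understates the change of low genes. Their 95% intervals ran from -0.28 to 0.97, from -0.58 to 0.67 and from -0.32 to 0.93. The sign for KAT against KPT turned in 6 of 31 alternative analyses, and without KPT 5 the value was -0.15.

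**Figure D1:**
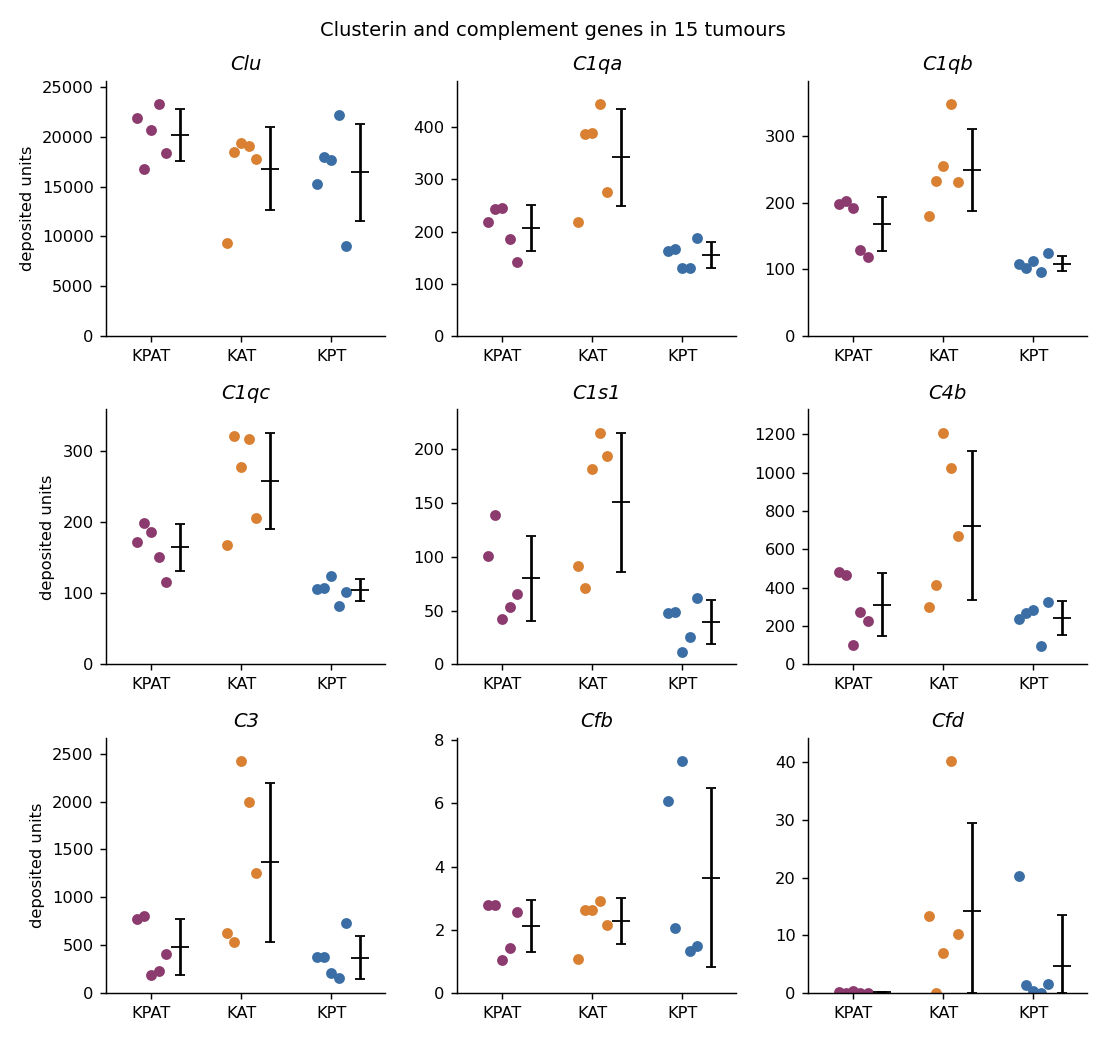
Level of each of the 9 genes in deposited units (reads divided by 1 factor per library) in KPAT, KAT and KPT tumours. Each point is 1 tumour, the short line is the mean and the bar is 1 SD on either side, drawn no lower than 0. The C1q genes of all 5 KAT tumours lie above all KPT tumours, while Clu overlaps between the genotypes.

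Receptors that take up clusterin were measured as well. Of 3 such genes, Vldlr fell in both genotypes with floxed Arf. Its log2 fold change was -1.43 in KPAT over KPT (SE 0.25, adjusted p = 0.00348) and -1.75 in KAT over KPT (SE 0.25, adjusted p = 0.000372). Its level was 16.5 to 33.2 in KPAT and 14.4 to 30.98 in KAT tumours, and 48.6 to 85.1 in KPT tumours, so neither group overlapped with KPT, where 4.93% of all genes tested lay below KPT without overlap for KPAT and 8.38% for KAT. Vldlr did not differ beyond its spread between KPAT and KAT (0.33, SE 0.25, adjusted p = 0.663). The related receptor Lrp8 and the large endocytic receptor Lrp2 passed no comparison.

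Of the 9 genes, 6 rose in KAT against KPT tumours: C1qa, C1qb, C1qc, C1s1, C4b and C3. No gene of the 9 fell, while 15.6% of all 16648 genes tested were called higher and 13.3% lower (28.9% in all). All 5 KAT tumours lay above all 5 KPT tumours for 4 of the 9, C1qa, C1qb, C1qc and C1s1, as for 9.24% of all genes tested. In KPAT against KPT, C1qb and C1qc rose, where 9.13% of all genes tested were called higher and 7.4% lower (16.5% in all). Between KPAT and KAT none of the 9 passed in limma, where 0.0481% of all genes were called. At an unadjusted p below 0.05 in limma, 6 of the 9 differed between KPAT and KAT, against 10.8% of all genes tested, though their values overlapped between these groups. The 6 include the C1q chains, and C3 and C4b, which varied together, so they are not separate results. For KPAT against KAT edgeR called 0 of the 9, with 0.042% of all genes called. DESeq2 called 2, C1qa and Cfd, with 1.71% of all genes called. limma with array weights called 4, C1qa, C1qb, C3 and Cfd, but it also called 515 of the 16648 genes, where the main fit called 8. The median log2 fold change of the 9 was 0.35 in KPAT over KPT, 1.27 in KAT over KPT and -0.71 in KPAT over KAT, beside 0.02, 0.03 and -0.00 over all genes. The 3 comparisons share their samples in pairs.

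Some markers of other cell types also differed in these comparisons. Of 10 ductal epithelium markers, none rose, Epcam, Cldn7 and Elf3 fell in KPAT against KPT, and Krt19, Krt18, Cldn7, Cdh1 and Elf3 fell in KAT against KPT. These 30% and 50% stand beside 7.4% and 13.3% of all genes tested called lower. Of 8 endothelial markers, Kdr and Tek rose in KPAT against KPT and Kdr, Tek and Tie1 in KAT against KPT, and none fell. These 25% and 37.5% stand beside 9.13% and 15.6% of all genes tested called higher. The summed endothelial level was 228 to 447 in KPAT, 222 to 692 in KAT and 159 to 387 in KPT tumours. Of 8 neutrophil markers, Retnlg fell in both comparisons with KPT and Csf3r rose in KAT against KPT. Each call is a single gene, 12.5% of the list, beside the shares of all genes given above. Of 9 hepatocyte markers tested, Apob fell in both comparisons with KPT, a single gene and 11.1% of the list, and none of 9 acinar markers passed. None of these lists had a call between KPAT and KAT. The part of these cell types in the results for the 9 genes was not tested.

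**Figure D2:**
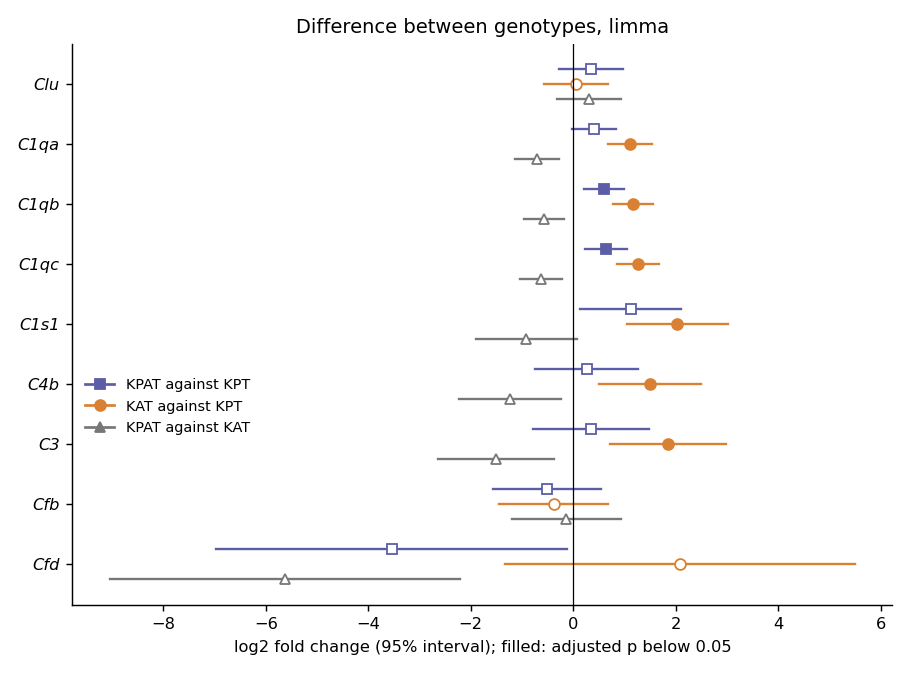
log2 fold change of the 9 genes with its 95% interval, from limma, for KPAT against KPT (squares), KAT against KPT (circles) and KPAT against KAT (triangles). Filled markers passed at an adjusted p of 0.05: 6 genes for KAT against KPT, 2 for KPAT against KPT and none for KPAT against KAT.

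The 3 chains of C1q, the recognition protein of the classical arm, are encoded side by side on the minus strand of chromosome 4, C1qb at 136880129 to 136886187, C1qc at 136889804 to 136893065 and C1qa at 136895917 to 136898803. C1qa stood at 219, 243, 245, 186 and 141 in KPAT tumours, at 218, 387, 388, 444 and 275 in KAT tumours and at 163, 166, 129.9, 129.5 and 187 in KPT tumours. Every KAT tumour exceeded every KPT tumour, and KPAT overlapped with both. C1qa rose in KAT against KPT (log2 fold change 1.11, SE 0.20, adjusted p = 0.00147), a 2.16-fold difference. For KPAT against KPT its log2 fold change was 0.40 (SE 0.20, adjusted p = 0.18) and for KPAT against KAT -0.71 (SE 0.20, adjusted p = 0.242).

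C1qb stood at 198.5, 202.6, 191.9, 129 and 118 in KPAT tumours, at 180.3, 232.1, 256, 348 and 232.0 in KAT tumours and at 107.6, 102.4, 113, 95.9 and 124 in KPT tumours. The lowest KPAT tumour fell among the KPT tumours, and all KAT tumours lay above them. C1qb rose in KAT against KPT by a log2 fold change of 1.17 (SE 0.18, adjusted p = 0.000618) and in KPAT against KPT by 0.60 (SE 0.18, adjusted p = 0.0377). The KPAT call ended when KPAT 1, 2 or 3 or KPT 1, 2, 3 or 4 was left out, with log2 fold changes of 0.52 to 0.61 and an adjusted p of up to 0.0944. Against KAT, KPAT had a C1qb log2 fold change of -0.58 (SE 0.18, adjusted p = 0.296).

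C1qc stood at 172, 199.4, 186, 151 and 116 in KPAT tumours, at 169, 321, 278, 317 and 206 in KAT tumours and at 106.5, 108, 124, 82.0 and 102 in KPT tumours. As for C1qb, 1 KPAT tumour overlapped with KPT and no KAT tumour did. C1qc rose in KAT against KPT by 1.27 (SE 0.19, adjusted p = 0.00051) and in KPAT against KPT by 0.64 (SE 0.19, adjusted p = 0.0334) on the log2 scale. The KPAT call ended without KPAT 1, 2 or 3 or KPT 1, 2, 4 or 5, with log2 fold changes of 0.56 to 0.66 and an adjusted p of up to 0.0844. Against KAT, KPAT had a C1qc log2 fold change of -0.63 (SE 0.19, adjusted p = 0.275). By mean level all 3 chains were therefore ordered KAT, KPAT, KPT, and the neighbours KAT and KPAT did not pass for any chain.

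Per kilobase of exon C1qa gave 42.6% to 51.8% of the 3 C1q chains in a tumour, C1qb 28.4% to 37.9% and C1qc 15.2% to 22.1%. The share of C1qa was 45.4% ± 1.57 in KPAT, 47.3% ± 2.14 in KAT and 49.04% ± 3.79 in KPT tumours (SD, n = 5 each), so the chains kept close proportions while their level differed.

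Some macrophage markers rose in the same comparisons as C1q. Of 12 markers, 6 rose in KPAT against KPT and 9 in KAT against KPT, where 9.13% and 15.6% of all genes tested were called higher, and none passed between KPAT and KAT. Csf1r and Mertk were among those that rose in both. Cd14 and Cd68 passed in neither. Cd14, which averaged 208 in KPAT, 223 in KAT and 249 in KPT tumours and was the largest term of the sum in KPT, had log2 fold changes of -0.27 in KPAT over KPT (SE 0.26, adjusted p = 0.503) and -0.20 in KAT over KPT (SE 0.26, adjusted p = 0.578). Cd68 had 0.07 (SE 0.26, adjusted p = 0.888) and 0.45 (SE 0.26, adjusted p = 0.207). The summed level of the 12 markers was 450.0 to 814 in KPAT, 668 to 1240.0 in KAT and 402 to 678 in KPT tumours. The summed level of the 3 C1q chains was 376 to 645 in KPAT, 567 to 1109 in KAT and 307 to 413.5 in KPT tumours. The ratio of these sums was 0.804 ± 0.0210 in KPAT, 0.879 ± 0.124 in KAT and 0.733 ± 0.0831 in KPT tumours (SD, n = 5 each), and it depends on the level of Cd14. The part of macrophage number in the C1q result was not tested.

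**Figure D3:**
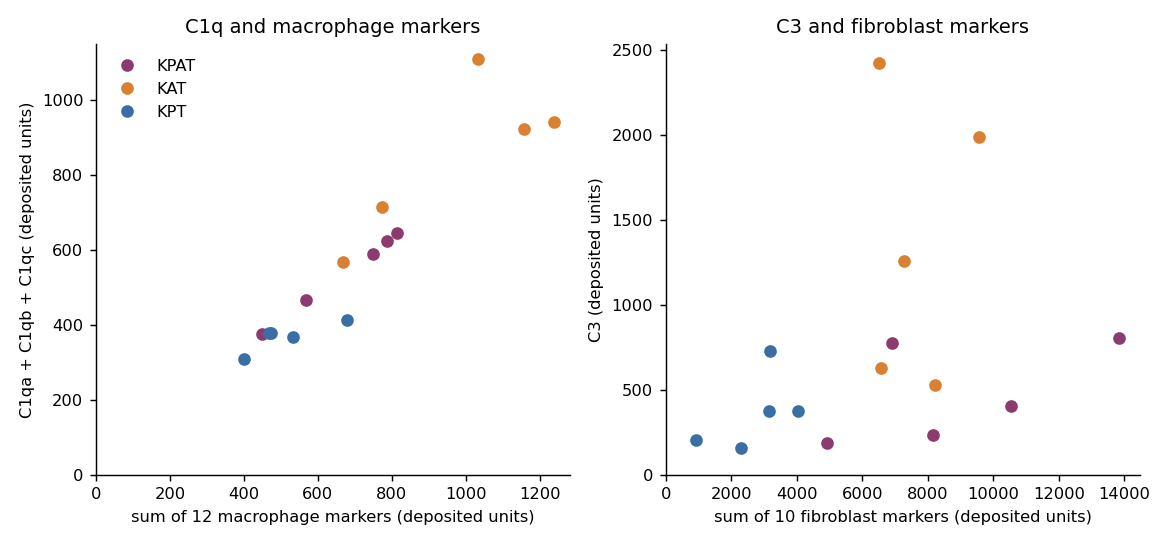
Left, summed level of C1qa, C1qb and C1qc against the summed level of 12 macrophage markers, and right, level of C3 against the summed level of 10 fibroblast markers, in deposited units. Each point is 1 tumour of the KPAT, KAT or KPT genotype. Summed C1q spans 307 to 1109 and the macrophage sum 402 to 1240.0 over the 15 tumours. On the right, KPAT tumours span fibroblast sums of 4926 to 13822 and C3 of 189 to 806, and KAT tumours 6503 to 9560 and 532 to 2424.

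C1s1, the protease that cleaves C4 and C2, lies on chromosome 6 (124530345 to 124542359, minus strand). It stood at 101, 138, 42.0, 53.7 and 65.9 in KPAT tumours, at 91.4, 71.1, 181, 215 and 194 in KAT tumours and at 48.0, 49.1, 11.2, 25.7 and 62.2 in KPT tumours. KAT and KPT tumours did not overlap, and KPAT tumours overlapped with both. C1s1 rose in KAT against KPT by a log2 fold change of 2.03 (SE 0.46, adjusted p = 0.00543), a 4.10-fold difference. Its log2 fold change was 1.12 for KPAT against KPT (SE 0.46, adjusted p = 0.109) and -0.91 for KPAT against KAT (SE 0.46, adjusted p = 0.493). Of its 31-base words, C1s1 shares 33.5% with its copy C1s2 and 15.5% with the overlapping antisense gene Gm16567, so its count is uncertain by what the authors' counting did with such reads. C1s2 averaged only 0.913 deposited units over the tumours, and summed with it C1s1 kept all its calls.

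C4b encodes complement C4 and lies on chromosome 17 (34728380 to 34743882, minus strand). It stood at 485, 469, 103, 272 and 226 in KPAT tumours, at 300.4, 414, 1209, 1027 and 669.7 in KAT tumours and at 237, 271, 286, 96.7 and 326 in KPT tumours. The 3 highest tumours were all KAT, and the lowest KAT tumour overlapped with KPT. C4b rose in KAT against KPT by a log2 fold change of 1.495 (SE 0.47, adjusted p = 0.0278). That call ended without KAT 3, KAT 4, KAT 5 or KPT 4, with log2 fold changes of 1.19 to 1.48 and an adjusted p of up to 0.0717. For KPAT against KPT the log2 fold change was 0.26 (SE 0.47, adjusted p = 0.74), and without KPT 4 it was -0.04. For KPAT against KAT it was -1.24 (SE 0.47, adjusted p = 0.358). C4b shares 48.3% of its 31-base words with its copy C4a, which averaged 2.41 deposited units, so part of its reads may have been assigned to either gene.

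C3, the component on which the arms of complement meet, lies on chromosome 17 (57203970 to 57228136, minus strand). It stood at 774, 806, 189, 234 and 404 in KPAT tumours, at 628, 532, 2424, 1992 and 1259 in KAT tumours and at 374, 376, 206, 155 and 728 in KPT tumours. Again 3 KAT tumours were above all others, and the other 2 KAT tumours lay below the highest KPT tumour. C3 rose in KAT against KPT by a log2 fold change of 1.86 (SE 0.53, adjusted p = 0.0179), a 3.62-fold difference. The call held with any single tumour left out (adjusted p of up to 0.0479) and ended when KPT 1 and KAT 4, the tumours with the highest adipocyte marker levels, were left out together (1.72, adjusted p = 0.0702). For KPAT against KPT the log2 fold change was 0.35 (SE 0.53, adjusted p = 0.685) and for KPAT against KAT -1.50 (SE 0.53, adjusted p = 0.33).

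Per kilobase, C3 averaged 93.6 deposited units in KPAT, 266 in KAT and 71.5 in KPT tumours, C4b 54.6, 127 and 42.8, and C1s1 25.6, 48.1 and 12.5 in the same order of genotypes. C1s1 per kilobase was 0.263 ± 0.0464 times its inhibitor Serping1 in KPAT, 0.258 ± 0.0612 times in KAT and 0.249 ± 0.0878 times in KPT tumours (SD, n = 5 each). The ratio of C1s1 to its inhibitor thus overlapped between all genotypes.

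Fibroblast markers stood apart between the same genotypes. Of 10 markers, 6 rose in KPAT against KPT and 10 in KAT against KPT, where 9.13% and 15.6% of all genes tested were called higher, and none passed between KPAT and KAT. Their summed level was 4926 to 13822 in KPAT, 6503 to 9560 in KAT and 911 to 4042 in KPT tumours. Most of the sum came from 3 collagen genes, of which Col1a1 averaged 2995 in KPAT, 2453 in KAT and 893 in KPT tumours. In KPAT over KAT, 4 of the 10 markers had a positive log2 fold change, and the median over the list was -0.16. Pdpn, Fap and Dcn, chosen after their values were seen, had their highest mean in KAT tumours. Pdpn averaged 15.8 in KPAT, 43.2 in KAT and 9.54 in KPT tumours, Fap 6.76, 12.6 and 3.81, and Dcn 317, 462 and 148 in the same order of genotypes. The part of fibroblast number in these results was not tested. Of 14 genes of the acute phase and of NF-kappaB or IL6 signalling, 12 were tested. Of these, Socs3 fell in KPAT against KPT (8.33% of the 12, beside 7.4% of all genes called lower). None of the 12 passed in KAT against KPT or KPAT against KAT. Of 14 interferon gamma response genes, Ciita, H2-Aa, H2-Ab1 and Cxcl9 rose in KAT against KPT, a share of 28.6% beside 15.6% of all genes called higher, and none passed in the other comparisons.

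The alternative arm genes were low. Cfb, the gene of factor B (chromosome 17, 34856374 to 34862518, minus strand), stood at 2.77, 2.78, 1.04, 1.41 and 2.55 in KPAT tumours, at 1.08, 2.64, 2.61, 2.92 and 2.14 in KAT tumours and at 6.07, 2.05, 7.34, 1.32 and 1.47 in KPT tumours. The genotypes overlapped, with 2 KPT tumours above all others. Its log2 fold change was -0.52 in KPAT over KPT (SE 0.50, adjusted p = 0.503), -0.38 in KAT over KPT (SE 0.50, adjusted p = 0.588) and -0.13 in KPAT over KAT (SE 0.50, adjusted p = 0.944). Cfb shares 75.5% of its 31-base words with the overlapping read-through gene Gm20547, which is not analysed here, so its level is uncertain. Summed with its neighbour C2, the value was 0.02 for KPAT against KPT and 0.69 for KAT against KPT. C2 is not a copy of Cfb, had the higher mean level (6.43 against 2.68) and itself rose in KAT against KPT. The sum therefore does not describe Cfb alone.

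Cfd, the gene of factor D (chromosome 10, 79890853 to 79892655, plus strand), is also named adipsin and is known as a product of fat cells. It had 2, 0, 5, 0 and 0 reads in KPAT tumours, 284, 0, 131, 923 and 187 reads in KAT tumours and 405, 21, 5, 1 and 36 reads in KPT tumours. All KPAT tumours were near 0, and single tumours of the other genotypes carried most of the reads. Its log2 fold change was -3.54 in KPAT over KPT (SE 1.61, adjusted p = 0.142), 2.08 in KAT over KPT (SE 1.61, adjusted p = 0.347) and -5.63 in KPAT over KAT (SE 1.61, adjusted p = 0.244). These values depend on the pseudocount, and for KPAT against KPT they ran from -6.01 to -1.39 over the alternatives. edgeR (-5.85, adjusted p = 0.0362) and DESeq2 (-6.01, adjusted p = 0.00445) called Cfd lower in KPAT than in KPT, where they called 16.3% and 23.2% of all genes. Without KAT 2, which had 0 Cfd reads, limma called all 3 comparisons (adjusted p = 0.0468, 0.0345 and 0.0253). The adipocyte marker Adipoq had 0, 0, 2, 1 and 0 reads in KPAT tumours, 28, 3, 5, 128 and 20 in KAT tumours and 60, 3, 1, 0 and 0 in KPT tumours. The tumours with the most Cfd reads were those with the most Adipoq reads, KAT 4, KPT 1 and KAT 1. Of 10 adipocyte markers, Lep had 0 reads in all KPAT tumours and 8 markers were tested. Cidec fell in both comparisons with KPT and Adrb3 rose in KAT against KPT. Each call is 12.5% of the 8. Of all genes, 7.4% were called lower in KPAT and 13.3% lower and 15.6% higher in KAT, each against KPT. The summed level of the 10 markers was 10.6 to 62.8 in KPAT, 26.1 to 88.3 in KAT and 25.9 to 125 in KPT tumours. This sum did not follow the Cfd reads throughout. It was 62.8 in KPAT 1, which had 2 Cfd reads, and lower in KAT 3 (52.0) and KAT 5 (36.1), which had 131 and 187. The part of fat tissue in the Cfd result was not tested.

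The rest of the pathway was read from 48 other complement genes, listed by function, of which 41 were in the table and 37 were tested. In KAT against KPT, 17 rose and 1 fell, and the median log2 fold change was 1.07, beside 0.03 over all genes. The genes that rose were 45.9% of the 37, beside 15.6% of all genes called higher. In KPAT against KPT, 4 rose and none fell (median 0.47, beside 0.02), and these 10.8% lie near the 9.13% of all genes called higher. Between KPAT and KAT none passed in limma, edgeR called 0 as well, 5 (13.5%) had an unadjusted p below 0.05, beside 10.8% of all genes, and the median was -0.53, beside -0.00.

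Of 9 other classical and lectin arm genes tested, 5 rose in KAT against KPT (55.6%, beside 15.6% of all genes called higher). These were the protease genes C1ra, C1s2, C2 and Masp1 and the collectin gene Colec12, and none of the 9 passed in KPAT against KPT. C1s2 had 1 to 89 reads in a library, and C1s1 shares 33.5% of its 31-base words with it. Reads of C1s1 may thus have been assigned to C1s2, which makes its call uncertain, as well as the list counts that include it. C1s2 was at 0.37 to 4.65 in KAT and 0.05 to 0.45 in KPT tumours (log2 fold change 2.19, SE 0.65, adjusted p = 0.0206), a call that ended with quantile scaling (log2 fold change 1.57, adjusted p = 0.0902), without KAT 3 (1.78, adjusted p = 0.0569) and without KPT 1 and KAT 4 (2.28, adjusted p = 0.0589). C1ra, the protease that activates C1s, averaged 34.9 in KPAT, 73.1 in KAT and 23.8 in KPT tumours, and its log2 fold change was 0.52 (SE 0.43, adjusted p = 0.431) for KPAT against KPT and -1.076 (SE 0.43, adjusted p = 0.392) for KPAT against KAT. Colec12 averaged 57.2 in KPAT, 92.0 in KAT and 31.9 in KPT tumours, with 0.93 (SE 0.34, adjusted p = 0.0718) for KPAT against KPT and -0.64 (SE 0.34, adjusted p = 0.506) for KPAT against KAT.

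Of 5 other alternative and terminal genes, C7 and Cfp rose in KAT against KPT and none passed in the other comparisons. That is 40% of a short list, beside 15.6% of all genes tested called higher. C7, a part of the pore-forming complex, stood at 2.86, 3.57, 23.2, 24.8 and 2.75 in KAT tumours and at 2.31, 0.703, 1.24, 0.308 and 0.936 in KPT tumours. The groups did not overlap, and 2 KAT tumours carried most of the difference (log2 fold change 2.87, SE 0.95, adjusted p = 0.0343). The C7 call ended without KAT 3, KAT 4, KPT 2, KPT 4 or KPT 5, with log2 fold changes between 2.41 and 3.20 over all single tumours left out and an adjusted p of up to 0.0879. In KPAT tumours C7 stood at 3.38, 20.8, 0.272, 2.35 and 2.98, with a log2 fold change of 1.54 against KPT (SE 0.95, adjusted p = 0.278) and of -1.33 against KAT (SE 0.95, adjusted p = 0.637). Cfp encodes properdin, which stabilises the alternative C3-cleaving enzyme. It averaged 38.6 in KPAT, 70.7 in KAT and 26.8 in KPT tumours, with 0.49 (SE 0.28, adjusted p = 0.24) for KPAT against KPT and -0.88 (SE 0.28, adjusted p = 0.296) for KPAT against KAT. No KPAT tumour reached the lowest KAT tumour for Cfp, where 1.3% of all genes tested lay apart in that direction.

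Of 13 regulators, Serping1 and Cd59a rose in KAT against KPT, and Cd59a alone rose in KPAT against KPT. These shares of the list, 15.4% and 7.69%, lie near or below the 15.6% and 9.13% of all genes called higher. Cd59a, a membrane-bound inhibitor of the pore-forming complex, stood at 28.1, 29.5, 16.2, 29.99 and 25.2 in KPAT tumours and at 6.22, 5.56, 8.80, 22.4 and 3.03 in KPT tumours (log2 fold change 1.78, SE 0.43, adjusted p = 0.0141). Only KPT 4 reached into the range of KPAT. Serping1 encodes the inhibitor of C1r and C1s and averaged 238 in KPAT, 455 in KAT and 118 in KPT tumours, with a log2 fold change of -0.96 (SE 0.46, adjusted p = 0.464) for KPAT against KAT.

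Of 10 receptors, 8 rose and 1 fell in KAT against KPT, and C3ar1, C5ar2 and Lrp1 rose in KPAT against KPT. The genes that rose are 80% and 30% of the list, beside 15.6% and 9.13% of all genes tested called higher. The 1 that fell is 10%, beside 13.3% called lower. C5ar2, a receptor of the C5a fragment, stood at 2.58, 1.70, 3.16, 1.21 and 1.09 in KPAT tumours, at 3.37, 6.53, 1.83, 3.79 and 2.91 in KAT tumours and at 0.502, 0.320, 0.378, 0.220 and 1.34 in KPT tumours. All KAT tumours exceeded all KPT tumours (log2 fold change 2.77, SE 0.46, adjusted p = 0.000979), and KPT 5 reached into the range of KPAT (1.87, SE 0.46, adjusted p = 0.0158). C3ar1, the receptor of C3a, averaged 15.1 ± 4.19 in KPAT and 6.63 ± 4.46 in KPT tumours (SD, n = 5 each; log2 fold change 1.33, SE 0.34, adjusted p = 0.0175). Itgax, a chain of a receptor for fragments of C3 and a marker of dendritic cells and macrophages, stood at 38.5, 37.01, 27.4, 111 and 82.2 in KAT tumours and at 9.03, 9.66, 11.3, 9.07 and 18.4 in KPT tumours (2.21, SE 0.48, adjusted p = 0.00425). Lrp1, a large endocytic receptor, averaged 849 in KPAT, 1007 in KAT and 475 in KPT tumours. It was higher in KPAT than in KPT by 0.79 (SE 0.25, adjusted p = 0.0411), a call that 10 of the 15 analyses with 1 tumour left out ended (adjusted p of up to 0.103). C1qbp, the gene of a mostly mitochondrial protein that binds C1q, was the one that fell in KAT against KPT (-0.52, SE 0.13, adjusted p = 0.0106). For KPAT against KAT the log2 fold change of Lrp1 was -0.28 (SE 0.25, adjusted p = 0.713) and that of C1qbp 0.23 (SE 0.13, adjusted p = 0.546).

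**Figure D4:**
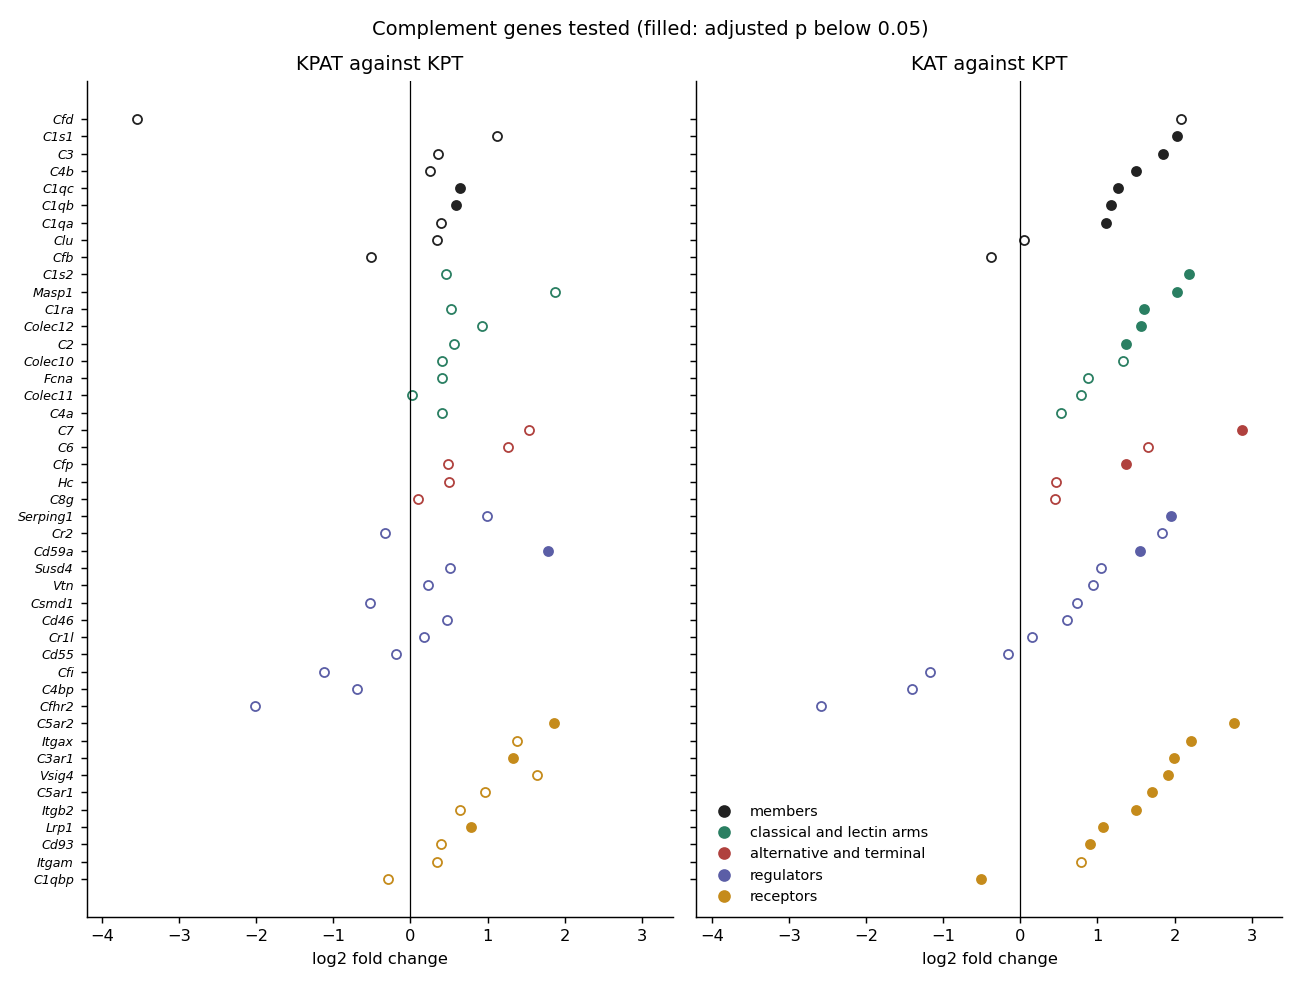
log2 fold change from limma of the 9 genes and 36 of the 37 other complement genes tested, for KPAT against KPT (left) and KAT against KPT (right), ordered within each role by the values on the right. Filled points passed at an adjusted p of 0.05. Most filled points on the right lie above 0, among them 8 of 10 receptors, and C1qbp is the one below 0.

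The 9 genes were then compared with each other after the genotype means had been removed, over 36 pairs and 15 tumours. Pearson's r passed for 5 pairs in a two-sided permutation test within genotypes (100000 resamples, adjusted over the 36 pairs), and these fall into 2 sets. The C1q chains varied together, with r = 0.83 for C1qa and C1qb (adjusted p = 0.00504, rho = 0.82 with adjusted p = 0.00936), 0.85 for C1qa and C1qc (adjusted p = 0.0129, rho = 0.73 with adjusted p = 0.0684) and 0.78 for C1qb and C1qc (adjusted p = 0.0129, rho = 0.75 with adjusted p = 0.0325). Without the 2 tumours farthest from the median, r was 0.67, 0.65 and 0.65 in the same order of pairs. With single tumours left out, the permutation test ended the call of C1qa and C1qc without KPAT 5, KAT 1 or KAT 5 (adjusted p of up to 0.0697) and of C1qb and C1qc without KPAT 5 or KAT 1 (adjusted p of up to 0.0981).

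C3 varied together with C1s1 and C4b. For C1s1 and C3 r was 0.86 (permutation test, adjusted p = 0.00504, rho = 0.82 with adjusted p = 0.00936) and for C4b and C3 it was 0.87 (adjusted p = 0.00504, rho = 0.89 with adjusted p = 0.00576). Without the 2 tumours farthest from the median r was 0.94 and 0.83. For C1s1 and C4b r was 0.61 (adjusted p = 0.123), and it was 0.91 without KAT 2 and KPT 3. C1qc and C1s1 had r = 0.05 (adjusted p = 0.917). For the 8 pairs with Clu r ran from -0.28 to 0.31, none passed and the lowest adjusted p in the permutation test was 0.559. Without KAT 1 and KPT 5, the tumours lowest in Clu, these 8 r values ran from -0.64 to -0.10, so the positive ones rest on those 2 tumours.

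**Figure D5:**
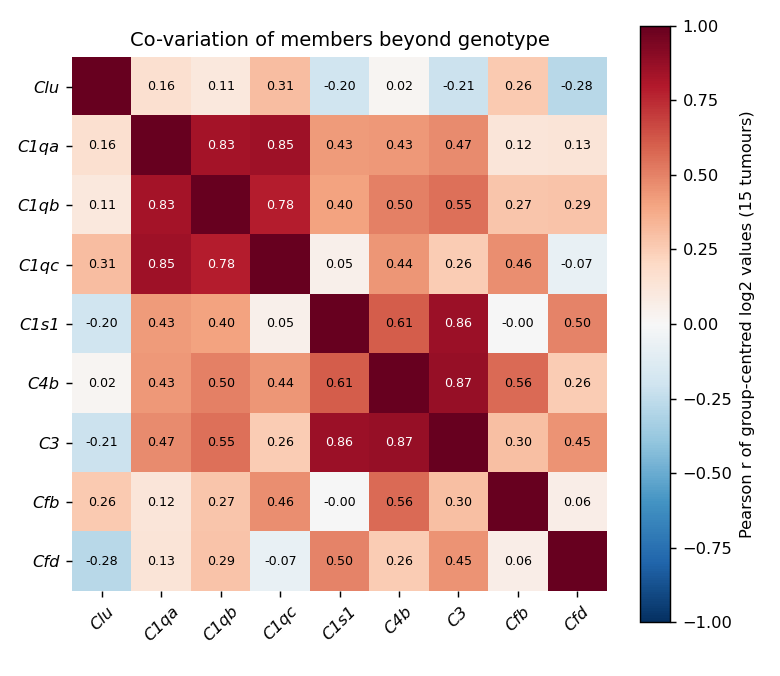
Pearson's r between each pair of the 9 genes over 15 tumours, from log2 values with the KPAT, KAT and KPT means removed. Blocks of high r hold the 3 C1q chains (0.78 to 0.85) and C3 with C1s1 and C4b (0.86 and 0.87), while the row of Clu runs from -0.28 to 0.31.

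The genes most like each pattern beyond genotype were picked by r over the 15 tumours from 11187 genes with a mean of at least 100 on the scale of reads. The 9 genes themselves were left out of the ranking, as were predicted genes, pseudogenes and mitochondrial and sex-linked genes. These are the tops of a long ranking and carry no test, and all share library and depth. Closest to Clu were Aif1l (r = 0.91), Thsd1 (0.88), Tmem117 (0.86), Wtip (0.85) and Shisa6 (0.85). Closest to C3 were C1ra (0.96), Npr1 (0.90), Gypc (0.89), Il6st (0.88) and Smarca2 (0.88), the first of them the protease gene of the classical arm and Il6st a receptor chain of the IL6 family. Outside the 9 genes, closest to C1qa were Selp (0.91), Il10ra (0.88), Dip2c (0.85), Abca3 (0.83) and Ctsb (0.83). With the 9 genes ranked too, C1qc (0.85) and C1qb (0.83) would stand above Abca3 and Ctsb.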

How the data were processed

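Per the labels' protocols, RNeasy midi kits gave the RNA of 15 tumours, and TruSeq RNA libraries of it were read on a HiSeq4000. HISAT2 2.0.4 and mm10 (GRCm38) are named, per the submitters' processing notes. How reads were counted, with which annotation and strand setting, and how they were normalized is not given in the sources used here. Per gene and library, the authors deposited a signal value. Judged from the values it is whole reads divided by 1 factor per library: 100% of the deposited signal values were within 0.01 of a whole number of reads. Depth was 14696138 to 26248484 reads per library. The 5 KT samples, with neither suppressor floxed, were not used here.

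All values were multiplied by 19.478, the geometric mean over libraries of the reads in 1 deposited unit, since the design assumed values on the scale of reads. Genes with a mean of at least 10 were kept, which left 16648. log2(value + 1) was fitted with limma 3.58.1 in R 4.3.3 (3 groups, eBayes with trend, two-sided, Benjamini-Hochberg at 0.05). On the recovered reads edgeR 4.0.16 (quasi-likelihood) called 2706 genes between KPAT and KPT, 4684 between KAT and KPT and 7 between KPAT and KAT. DESeq2 1.42.0 called 3861, 5712 and 284 in that order, and limma 2752, 4805 and 8. The model was tested on simulated data in which few genes were changed. Over the 3 comparisons it called 5.2% to 12% of 1.5-fold, 32% to 39.2% of 2-fold and 71.6% to 76.8% of 4-fold changes. These shares hold for that setting, and many changes of 2-fold or less were missed there.

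The 9 genes, the gene lists and the motifs were chosen with earlier results of these data known. Of the other complement genes, each comparison names up to 4 called genes in each direction with the largest change and, for a list with none called, the 2 with the highest level. List genes named beside these were chosen after their values were seen. They include called members of their lists and also genes without a call, such as Cd14, Cd68, Lrp2, Lrp8 and Adipoq, and Lep, which was not tested. Symbols, coordinates and exon lengths came from GENCODE on GRCm38, and promoter windows from RefSeq. Copies were found by shared 31-base words. Correlations used Python 3.11.15 with scipy 1.17.1. Alternatives covered pseudocounts of 0.5 and 8, the deposited scale, no minimum and a minimum of 50, and median-of-ratios, TMM and quantile scaling. They also covered fits of 2 groups, array weights, robust eBayes, a replicate block, each tumour left out and sums with gene copies. For Cfb the sum was with its neighbour C2, which is not a copy. Leaving out KPT 1 with KAT 1 or with KAT 4 was added after seeing the data. An allele that all the mice share and the values of a complement regulator are not reported here.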

Additional observations from a re-analysis of the deposited data

Results flagged for a closer look

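Single tumours stood far from the other 4 of their genotype for 7 gene and genotype combinations out of 66 examined by Dixon's criterion, which by chance marks about 1 in 20 groups. Clu was 9366 deposited units in KAT 1, against 17828 to 19391 in the other KAT tumours. Cfd was 20.3 in KPT 1, against 0.0440 to 1.60 in the other KPT tumours. KPT 5 stood apart for 3 receptor genes. It had 1.34 for C5ar2 (others 0.220 to 0.502), 14.3 for C3ar1 (others 3.52 to 5.97) and 18.4 for Itgax (others 9.03 to 11.3). KPAT 2 stood apart for 2 genes, with 88.7 for Colec12 (others 41.4 to 54.8) and 20.8 for C7 (others 0.272 to 3.38). The causes were not tested.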

How the results depend on the processing

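Over 31 alternatives the calls of C1qa, C1qb, C1qc and C1s1 in KAT against KPT all remained. The count of the 9 genes called in KPAT against KPT was 2, and it was 1 with array weights, 1 without KPT 1 and KAT 1, 0 without KPT 1 and KAT 4, and 0 to 3 with single tumours left out. In KAT against KPT it was 6, and 5 to 7 with single tumours left out. In KPAT against KAT it was 0, but 4 with array weights, 2 with DESeq2 and 0 to 1 with single tumours left out (1 without KAT 2). Other complement genes called in KPAT against KPT were 4 of 37, against 8 with DESeq2 and 3 to 6 with single tumours left out. The 8 were 7 higher and 1 lower, and DESeq2 called 23.2% of all genes there. In KAT against KPT 18 other complement genes were called, against 11 without KPT 1 and KAT 4 and 13 to 19 with single tumours left out. In KPAT against KAT 0 were called, against 1 (Cfp) with array weights. Of all genes, 2752 were called in KPAT against KPT, against 1811 in a fit of these 2 groups, 1563 without KPT 1 and KAT 4 and 1686 (without KPAT 2) to 2896 with single tumours left out. In KAT against KPT 4805 were called, against 2704 without KPT 1 and KAT 4 and 3553 to 4836 with single tumours left out. In KPAT against KAT 8 were called, against 17 with quantile scaling, 15 in a fit of 2 groups, 515 with array weights, 284 with DESeq2 and 7 to 36 (without KAT 2) with single tumours left out. The 5 correlated pairs became 3 (without KAT 1) to 8 (without KPAT 3). Leaving out tumours makes the sample smaller, and for array weights, DESeq2 and quantile scaling the cause was not tested.

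Signs that turned belonged to values that had not passed. Clu in KAT against KPT (0.05) was -0.0755 with quantile scaling, -0.0218 without KPT 1 and KAT 4 and -0.15 to 0.25 with single tumours left out. C4b in KPAT against KPT (0.26) was -0.0450 to 0.609 with single tumours left out. The sum of Cfb and C2, in which C2 is the larger part, was 0.0215 in KPAT against KPT and 0.69 in KAT against KPT. Cfb alone was 0.13 in KAT against KPT without KPT 1 and KAT 1. In KPAT against KAT it was 0.14 with quantile scaling and -0.375 to 0.0891 with single tumours left out. Of the KAT against KPT calls, that of C3 ended only without KPT 1 and KAT 4, and that of C4b ended in 6 alternatives. The KPAT against KPT calls of C1qb and C1qc ended in 11 and 8 of their alternatives.

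The labels' replicate numbers are shared between genotypes, but tumours with the same number did not deviate together (r from -0.209 to 0.246), so the numbers were not taken as pairs. With a replicate block, 1 of the 9 genes was called in KPAT against KPT, 5 in KAT against KPT and 0 in KPAT against KAT, and 2248, 4313 and 7 of all genes. Depth limits Cfb, with 19 to 136 reads in a library, and Cfd, with 0 to 923. Counting error covers only part of the spread of these 2 genes.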
